A study of Homo sapiens with 6 samples.

Results

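Replication-dependent histone genes are described here across 6 arrays of the human line NCI-H2023, which derives from a lung adenocarcinoma. The members were chosen with earlier results of these data known. They were set by gene symbol, as H1-1 to H1-6 and all numbered genes of the H2AC, H2BC, H3C and H4C series. The array named 61 such genes, each with 1 probe set, among 17687 genes in all. RefSeq holds 69 genes that fit these symbols, and the other 8 (H2AC7, H2AC16, H2AC17, H2BC15, H3C4, H3C12, H3C14 and H3C15) were not matched to a probe set. Of the 61, 6 encode linker histone H1, 14 H2A, 17 H2B, 9 H3 and 15 H4.

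Cells were reverse transfected with a small RNA at 0.5 nM, and the medium was exchanged after 24 h. One group received a mimic of miR-29a-3p, another a mimic of miR-223-3p, and the third a control that the titles call a control mimic and the protocol a negative control siRNA. Each group had 2 samples, lettered A and B, with no other treatment or genetic change named for this single cell line. The labels give no harvest time and do not say whether A and B came from separate cultures, so the p-values measure the spread between these samples only, which may be technical. All values are deposited log2 signals, normalized with RMA, a method that gives the arrays alike distributions. Array medians lay between 6.21 and 6.23. The epithelial keratins KRT7, KRT8 and KRT18 had signals of 16.31 or more in every sample, whereas CLDN4 and the lung lineage genes NKX2-1, NAPSA and SFTPB lay at 5.14 or less. In a limma fit whose prior variance follows the signal level, 2 of 11 epithelial markers were called higher with miR-223-3p than in control. These were EPCAM, by 1.14, and KRT19, by 0.82 (adjusted p of 0.00201 and 0.00586 in limma). In either direction 0.684% of all genes were called there. CDH1, an adhesion protein of epithelia, differed by -0.84 with miR-29a-3p from control (adjusted p 0.0628 in that limma fit) and by -0.87 from miR-223-3p (0.036). Of 7 leukocyte markers, CD68 alone was called higher with miR-29a-3p, in that fit (10.4 and 10.27 in control, 10.98 and 11.02 with the mimic). There 1.03% of all genes were called against control in either direction. PTPRC lay at 4.89 or less. None of 8 fibroblast and endothelial markers was called, and their medians lay from 4.285 to 4.69. The part of these markers in the histone values was not tested. The gene median was 6.563.

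Histones are the proteins around which DNA is wound, with an octamer of H2A, H2B, H3 and H4 at the core of each nucleosome and H1 on the linker DNA. The replication-dependent genes lie in clusters, lack introns for the most part, and are transcribed together when DNA is copied in S phase. Their messenger RNAs end in a stem-loop bound by SLBP in place of a poly(A) tail, and they are degraded when replication stops. They are therefore commonly read as a sign of S phase activity in growing cells, tumour lines included. Because many of these genes have near-identical coding sequences, probes may share signal, and the assignment of a value to 1 gene of a family is uncertain. Fewer cells in S phase and less of these RNAs per cell cannot be told apart in such bulk samples.

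The mature microRNAs that name both mimics are shown first, as RefSeq gives them on GRCh38.p14, to make clear that their seeds differ. The seed, bases 2 to 8, is in capitals. miR-29a-3p comes from chr7:130876748-130876769 (minus strand) and miR-223-3p from chrX:66018937-66018958 (plus strand). The sources used here do not give the sequence of either mimic.

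hsa-miR-29a-3p: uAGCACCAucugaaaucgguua
hsa-miR-223-3p: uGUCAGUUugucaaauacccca

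Promoters of 4 members are shown, which were picked by their values in the comparison with miR-29a-3p. H2BC26, H2BC14 and H1-5 were the members called lower in 1 of the model fits, and H1-4 is a second linker histone gene whose miR-29a-3p samples lay below the other 4. Each window runs from 250 bases before the annotated start to 50 bases after it, 5′ to 3′ on the gene's strand. Positions are GRCh38.p14 from RefSeq, namely chr1:228457853-228458152 (plus) for H2BC26, chr6:27814772-27815071 (plus) for H2BC14, chr6:27867539-27867838 (minus) for H1-5 and chr6:26156079-26156378 (plus) for H1-4. Capitals mark matches, on either strand, to 4 short motifs. The TATA box was searched as TATAAA. For the CCAAT box the letters were those of its name. The octamer known from H2B promoters was searched as ATTTGCAT. For the H1 box of linker histone genes the letters were AAACACA.

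H2BC26: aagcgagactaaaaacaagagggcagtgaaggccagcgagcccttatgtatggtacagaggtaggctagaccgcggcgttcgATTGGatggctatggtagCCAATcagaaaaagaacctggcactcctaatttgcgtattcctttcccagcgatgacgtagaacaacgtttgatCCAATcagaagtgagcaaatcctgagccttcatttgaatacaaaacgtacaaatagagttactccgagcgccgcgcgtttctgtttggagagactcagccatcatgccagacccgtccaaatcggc
H2BC14: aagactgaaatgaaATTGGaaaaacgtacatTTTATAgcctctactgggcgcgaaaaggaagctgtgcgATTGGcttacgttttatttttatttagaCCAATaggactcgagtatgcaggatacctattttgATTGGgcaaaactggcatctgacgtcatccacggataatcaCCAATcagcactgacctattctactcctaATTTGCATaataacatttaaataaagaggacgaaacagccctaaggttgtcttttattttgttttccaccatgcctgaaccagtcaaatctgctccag
H1-5: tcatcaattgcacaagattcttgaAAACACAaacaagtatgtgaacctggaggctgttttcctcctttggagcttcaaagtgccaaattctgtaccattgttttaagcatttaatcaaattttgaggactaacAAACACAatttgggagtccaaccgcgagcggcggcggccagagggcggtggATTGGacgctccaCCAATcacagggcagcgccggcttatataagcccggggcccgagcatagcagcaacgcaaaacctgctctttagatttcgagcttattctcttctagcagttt
H1-4: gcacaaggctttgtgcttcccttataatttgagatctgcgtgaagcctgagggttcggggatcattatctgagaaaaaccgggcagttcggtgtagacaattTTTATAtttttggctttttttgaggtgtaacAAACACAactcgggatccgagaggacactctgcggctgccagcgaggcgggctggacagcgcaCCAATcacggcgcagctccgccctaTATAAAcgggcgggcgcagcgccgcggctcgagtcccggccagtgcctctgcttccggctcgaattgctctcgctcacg

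Such promoter windows were at hand for 57 of the 61 genes, all but H4C1, H4C3, H2AC12 and H3C11. The letters TATAAA occurred in 39 of the 57 windows, a share of 68.4%, against 12% of 27305 RefSeq promoters of the same length. CCAAT occurred in every window of the H1, H2A, H2B and H3 genes but in 3 of 13 H4 windows, against 35.7% of all promoters. The octamer letters ATTTGCAT were found in 14 of 17 H2B windows and 8 of 13 H2A windows, and in none of the H1, H3 and H4 windows. In all promoters their share was 1.8%. Windows of H2A and H2B genes that stand head to head overlap, as their starts lay 215 to 248 bases apart. The same match can therefore be counted for both genes. AAACACA was present in 6 of 6 H1 windows, 1 of 13 H2A windows and 5.76% of all promoters. No match to 1 of these motifs overlapped a match to another in the members. In H1-4 and H1-5 alike an AAACACA match began 117 bases before the start, and CCAAT began 54 and 53 bases before it. The octamer of H2BC14 began 48 bases before its start. H2BC26, H2BC5 and H2BC13 were the H2B genes whose windows lacked these exact letters, and their log2 differences with miR-29a-3p were -1.06, -0.145 and -0.43. These matches are descriptions of letters, not of bound sites.

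Before the mimics are compared, the control samples need to be seen side by side, because they differed for this group of genes. Control B lay above control A in 55 of the 61 genes, with a median gap of 0.25 (log2). Over all 17687 genes B was above A in 8547, and the median gap was -0.01. With miR-29a-3p sample B was above A in 37 of 61 members (median gap 0.08), and with miR-223-3p in 16 of 61 (median gap -0.14). The median SD of members within a group was 0.205 (control), 0.106 (miR-29a-3p) and 0.127 (miR-223-3p), each over 2 samples. Over all genes it was 0.141, 0.156 and 0.148 in the same order, so only in control was the members' value the larger. Genes of DNA replication and S phase also stood higher in control B, with medians 0.08 below the control mean in A and 0.08 above it in B. Those medians were -0.0075 and -0.115 in the miR-29a-3p samples and 0.04 and 0.01 in the miR-223-3p samples. The part of this in the histone values was not tested.

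**Figure D1:**
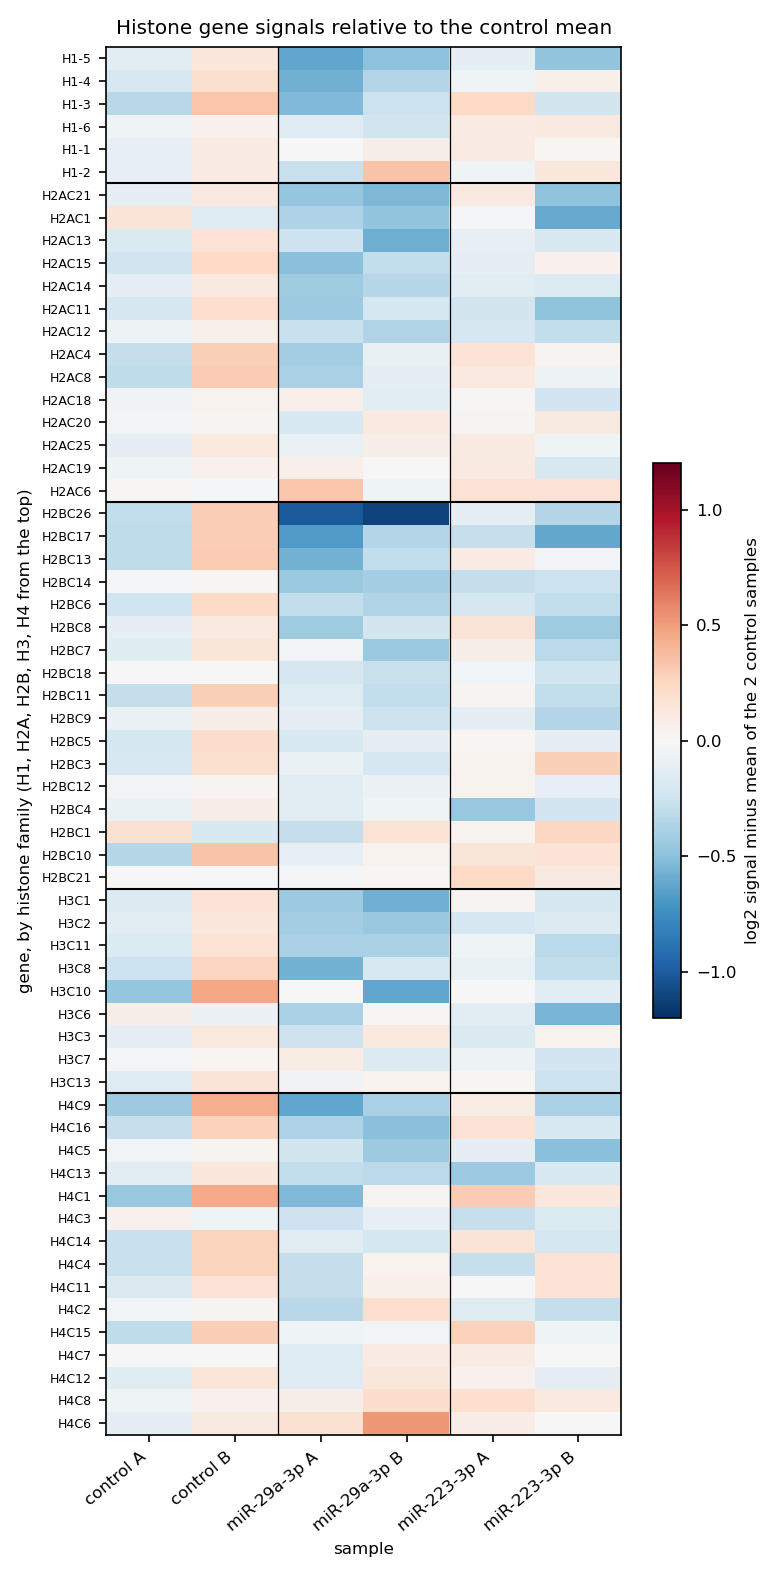
Each row is 1 of the 61 genes, grouped by family and ordered by its difference with miR-29a-3p, and each column is a sample. Colour gives the log2 signal minus the mean of the 2 control samples, and the control B column is warmer than the control A column in 55 rows while the miR-29a-3p columns are mostly blue.

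Cells given miR-29a-3p are compared with control first. Of the 61 histone genes, 53 had a lower mean with the mimic, 7 a higher one and 1 an equal one, where 49.5% of all genes were lower. The median log2 difference was -0.225, against 0 over all genes. Both mimic samples lay below both control samples in 25 members, which is 41%, against 18.8% of all genes. Both lay above in 2 members (H4C6 and H4C8), against 19% of all genes. No member passed limma's moderated test at an adjusted p under 0.05 with a constant prior, where 0.0113% of all genes did, and the smallest adjusted p among members was 0.215. At an unadjusted p under 0.05, 6 members passed in that fit, all lower, which were H2BC26, H1-5, H3C1, H2BC14, H3C2 and H1-4. That is 9.84% of members, against 4.67% of all genes that passed in the lower direction and 8.86% in either. When the prior variance was allowed to follow the signal level, called the intensity trend here, limma called 3 members lower and none higher, H2BC26, H2BC14 and H1-5, or 4.92% of members. Of all genes 0.695% were called lower and 1.03% in either direction. Those shares are not matched for signal, on which this prior depends. Of the 61 members 46 had a mean at or above the gene median, and all 3 calls were among these 46.

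These counts depended on the control samples. Without control B, 36 members were lower and the median was -0.065, and without control A, 56 were lower and the median was -0.37. Control B alone therefore moved the median by more than 1.5 times, as did control A. With the intensity trend no member was called without control B, nor without either miR-29a-3p sample. Without control A, 1 of the 3 calls remained, H2BC26. H1-4 was then called too, with a log2 difference of -0.655 and an adjusted p of 0.0498 in limma. All 3 calls remained without either miR-223-3p sample.

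**Figure D2:**
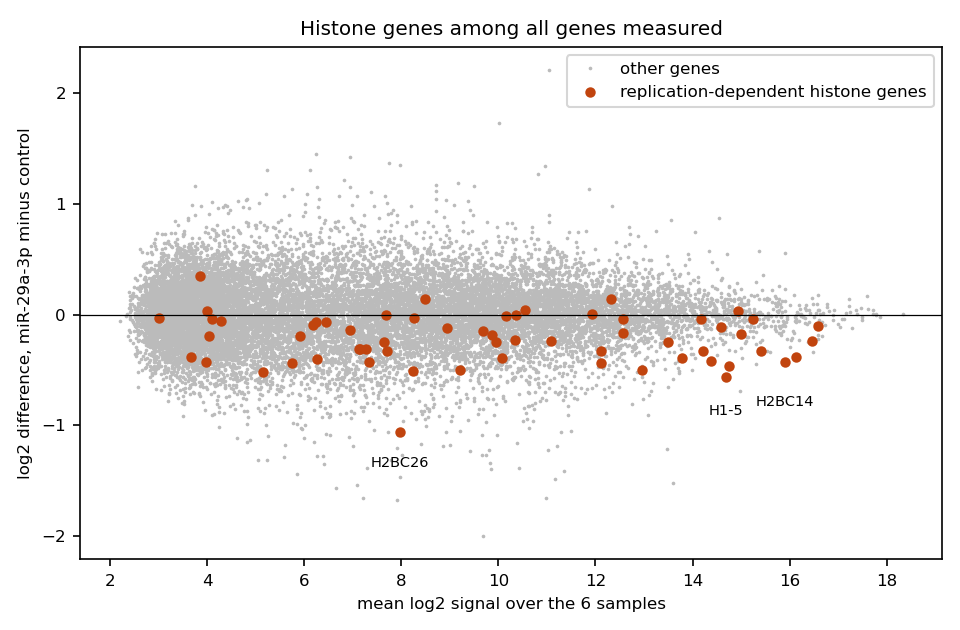
Log2 difference between the miR-29a-3p and control means (vertical axis) against the mean log2 signal over the 6 samples (horizontal axis), with 1 point per gene. Most of the 61 histone genes (orange) lie a little below 0 at all signal levels, inside the spread of the 17687 genes, and H2BC26 lies lowest among them.

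H2BC26, an H2B gene of the small cluster near the end of the long arm of chromosome 1 (gene ID 128312, chromosome 1, 228458103 to 228458558), differed most. Its signals were 8.11 and 8.7 in control A and B, 7.4 and 7.29 with miR-29a-3p, and 8.29 and 8.05 with miR-223-3p. Both miR-29a-3p samples were below the other 4 samples, with no overlap. The mean was 2.08-fold lower than in control, from 8.405 ± 0.417 to 7.345 ± 0.0778 (log2, SD, n = 2 each). The log2 difference was -1.06 with a standard error of 0.23, and limma gave an adjusted p of 0.215 (constant prior) and 0.0362 (trend). With the trend it was 0.0432 without control A, 0.441 without control B, and 0.162 and 0.226 without miR-29a-3p A and B. Its older names include HIST3H2BB and H2BU1.

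The linker histone genes split. H1-5 (gene ID 3009, chromosome 6, 27866792 to 27867588) had signals of 14.85 and 15.1 in control, 14.35 and 14.48 in the miR-29a-3p pair and 14.86 and 14.5 in the miR-223-3p pair. Here the miR-29a-3p samples were again the lowest pair, just below the lower miR-223-3p sample. The log2 difference from control was -0.56 with a standard error of 0.202 (1.47-fold lower), with an adjusted p in limma of 0.481 (constant prior) and 0.0334 (trend). H1-4, which encodes another somatic H1, measured 14.71 and 15.09 in control, 14.32 and 14.55 in the miR-29a-3p pair and 14.85 and 14.96 in the miR-223-3p pair. Its miR-29a-3p samples lay below the other 4, and the difference of -0.465 had an adjusted p of 0.561 and 0.0899 in limma in the same order. H1-3 differed by -0.395 with overlapping samples. H1-2 lay at 10.42 and 10.61 in control and at 10.25 and 10.86 with miR-29a-3p, so the control values sat between the mimic values. H1-1 and H1-6, the latter a gene of male germ cells, were dim, with signals from 3.84 to 4.18, and differed by 0.035 and -0.195.

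H2B genes were lower in 16 of 17 cases, with a median of -0.225. H2BC14 (gene ID 8342, chromosome 6, 27815022 to 27815489) had the tightest replicates of the called members, at 16.11 and 16.16 in control, 15.69 and 15.73 in the miR-29a-3p pair and 15.85 and 15.88 in the miR-223-3p pair. The 3 groups did not overlap, with control highest and miR-29a-3p lowest. Its difference with miR-29a-3p was -0.425 with a standard error of 0.169 (1.34-fold lower), and limma gave an adjusted p of 0.53 (constant prior) and 0.025 (trend). H2BC12, which had the brightest H2B probe set, differed by -0.1, from 16.59 and 16.65 to 16.49 and 16.55. H2BC21 was the 1 H2B gene not lower, at 11.86 in both control samples and 11.85 and 11.88 with the mimic.

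H2A genes were lower in 12 of 14 cases with a median of -0.28, and none was called in either fit. H2AC21 had the lowest difference among them, -0.5, with 13.07 and 13.29 in control and 12.72 and 12.64 with miR-29a-3p, which do not overlap. Its miR-223-3p samples were apart, at 13.29 and 12.7. H2AC14, the brightest H2A probe set, measured 16.2 and 16.42 in control and 15.88 and 15.97 with the mimic, a difference of -0.385 with an adjusted p in limma of 0.0595 with the trend. H2AC6 lay the other way at 0.14, with 8.39 and 8.36 in control and 8.71 and 8.32 with the mimic, which overlap.

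Among the H3 genes 8 of 9 were lower and 1 was equal, with a median of -0.31. H3C1 was lowest at -0.51, with 8.29 and 8.61 in control and 8.01 and 7.87 with the mimic. H3C2 differed by -0.435 and H3C11, the brightest H3 probe set, by -0.39, and in both the mimic samples lay below the controls. H3C13, a chromosome 1 gene, had a mean of 10.405 in both groups.

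The H4 genes were lower in 13 of 15 cases but with the family median nearest to 0, -0.12. H4C9 differed by -0.505, yet its control samples were far apart, at 8.98 and 9.86 against 8.8 and 9.03 with the mimic. H4C5, the brightest H4 probe set, measured 15.59 and 15.66 in control and 15.4 and 15.19 with the mimic, a difference of -0.33. H4C8 was higher by 0.14, at 12.18 and 12.28 against 12.3 and 12.44. H4C14 and H4C15 are duplicate neighbours on chromosome 1, and their probe sets gave values no more than 0.12 apart in every sample, so they may share signal. Their differences were -0.17 and -0.04. The neighbours H2AC18 and H2AC19, another near-duplicate pair, gave values 0.24 to 0.38 apart in every sample, with differences of -0.035 and 0.03.

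**Figure D3:**
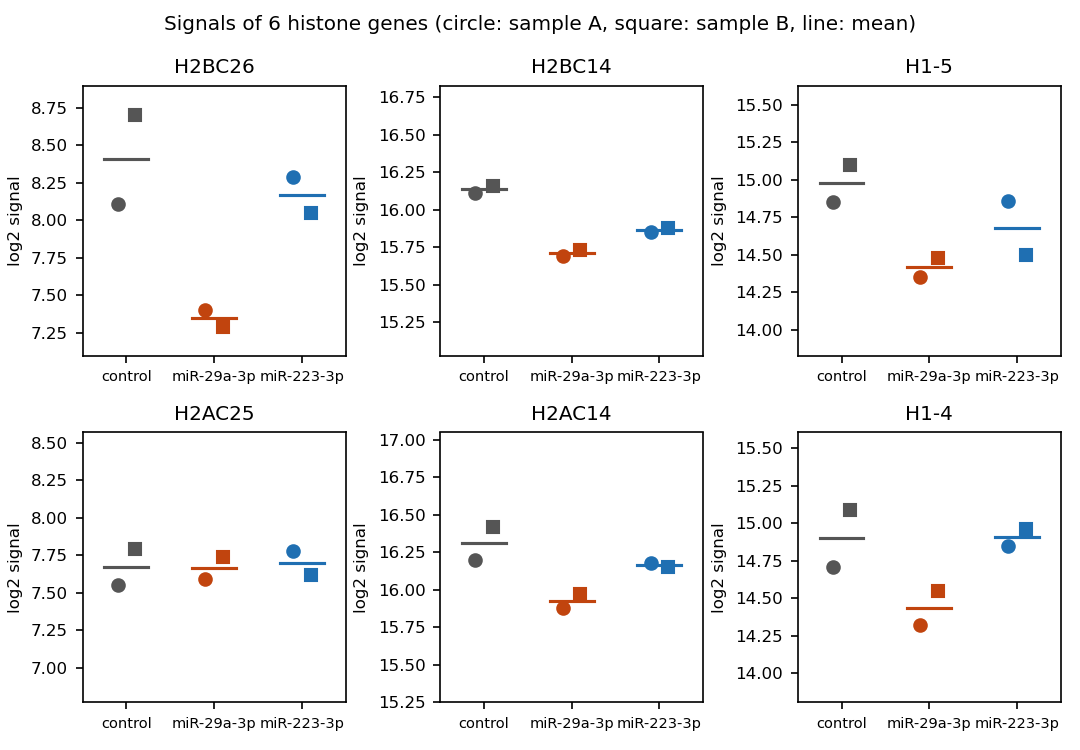
Log2 signal of 6 genes in each group, with sample A as a circle, sample B as a square and the group mean as a line, on axes of equal height. H2BC26 drops to 7.4 and 7.29 with miR-29a-3p while H2AC25, its neighbour on chromosome 1, stays between 7.55 and 7.79 in all 6 samples.

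By position the members fell in 5 places. The 17 genes from 27132316 to 27893891 on chromosome 6 were all lower with miR-29a-3p, with a median of -0.385, and 11 of them had no overlap with control. The 32 genes from 25726063 to 26285534 on that chromosome were lower in 27 cases, with a median of -0.1775 and 10 below both controls. The 9 genes from 149782689 to 149887965 on chromosome 1 had a median of -0.035, and 6 of them were lower. H2AC21 and H2BC18, at -0.5 and -0.235, were the 2 genes there with no overlap. On the far part of chromosome 1 lay H2AC25 and H2BC26, and H4C16 on chromosome 12 differed by -0.435 from a dim control mean of 5.9. Of all genes, 49.5% had a lower mean with miR-29a-3p, and 18.8% had both mimic samples below both controls. A difference between these places was not tested.

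The control samples also stood apart by place. Control B was above control A in 17 of 17 genes of the stretch that ends at 27893891 on chromosome 6. The control medians there were 0.175 below the control mean in A and 0.175 above it in B, and the miR-29a-3p medians were -0.39 and -0.34. In the chromosome 1 group of 9 the control medians were -0.055 and 0.055, and those of the mimic -0.05 and -0.03.

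Several H2A and H2B genes stand head to head, with their starts 215 to 248 bases apart on opposite strands, and 8 such pairs were found. In 6 pairs both genes had a mean at or above the gene median of 6.563. With miR-29a-3p both partners were lower in 5 of these 6, and the median gap between partners was 0.06. Among all 46 members at or above the gene median, 40 were lower. Partners were not compared with unpaired genes, so these counts do not show that partners move together. Over all 8 pairs both were lower in 6, and the median gap was 0.09. The 2 pairs with a gene under the gene median had differences of -0.425 for H2AC1 and -0.055 for H2BC1, and of 0.14 for H2AC6 and -0.09 for H2BC4. H2AC1 and H2BC1 are, like H1-6, genes of male germ cells and were dim, with signals from 3.62 to 4.51. H2AC14 and H2BC14 differed by -0.385 and -0.425, and H2AC13 and H2BC13 by -0.415 and -0.43. In the remaining pair, H2AC20 and H2BC21, the differences were -0.035 and 0.005. Of the 8 pairs, H2AC25 and H2BC26 were furthest apart. H2AC25 starts 230 bases from H2BC26 and measured 7.55 and 7.79 in control and 7.59 and 7.74 with the mimic, a difference of -0.005 against -1.06 for H2BC26. The gap of 1.055 between these partners was not tested.

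**Figure D4:**
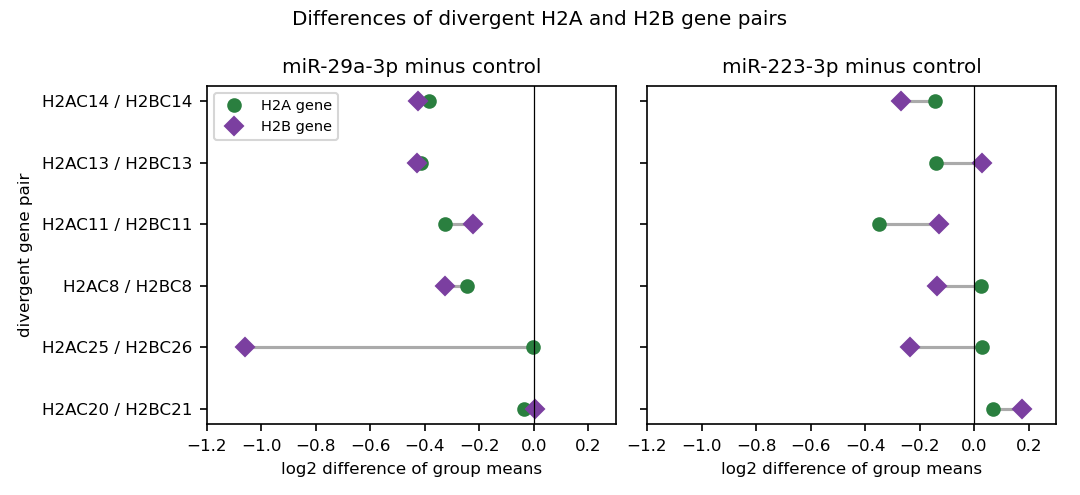
Log2 differences from control of the H2A gene (green circle) and the H2B gene (purple diamond) of 6 divergent pairs, with miR-29a-3p on the left and miR-223-3p on the right. With miR-29a-3p the partners H2AC25 and H2BC26 are 1.055 apart, the widest gap among the pairs drawn, and the 2 pairs with a gene under the gene median are not drawn.

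Cells given miR-223-3p were compared with the same control samples, so the comparisons share them. Of the 61 genes 40 had a lower mean and 21 a higher one, against 49.3% of all genes lower, and the median was -0.065. Both mimic samples lay below both controls in 14 members, or 23%, against 18.2% of all genes, and above in 4, or 6.56%, against 18.7%. In limma no member was called with the constant prior, where 0% of all genes were, nor with the trend, where 0.684% were. At an unadjusted p under 0.05 the members' count was 0 with the constant prior, against 7.59% of all genes, and the smallest adjusted p among members was 0.724. The direction of the median depended on single samples. Without control B it was 0.06, with 23 members lower, and without control A it was -0.255, with 54 lower. Without miR-223-3p B it was 0.015, with 27 lower, and without miR-223-3p A it was -0.18, with 42 lower.

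By family the H3 genes were lower in 9 of 9 cases, with a median of -0.145. H2B genes had a median of -0.13, H2A genes -0.0775, H4 genes -0.025 and H1 genes 0.0225. Among genes at or above the gene median, the lowest difference of each family was -0.35 for H2AC11, -0.31 for H4C5 (and H4C13), -0.295 for H1-5, -0.27 for H2BC14 and -0.185 for H3C11. H2AC11 measured 14.23 and 14.63 in control and 14.21 and 13.95 with the mimic, so the groups were only just apart. The dim H2BC17 differed by -0.445, from 5.18 and 5.78 to 5.2 and 4.87, with overlap. Under the same limit on signal, the highest of each family were H4C1 at 0.215, H2AC6 and H2BC21 at 0.175, H1-2 at 0.035 and H3C10 at -0.065. H2BC21 lay above both controls in both samples, at 12.1 and 11.97 against 11.86, and limma with the constant prior gave it an adjusted p of 0.878.

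**Figure D5:**
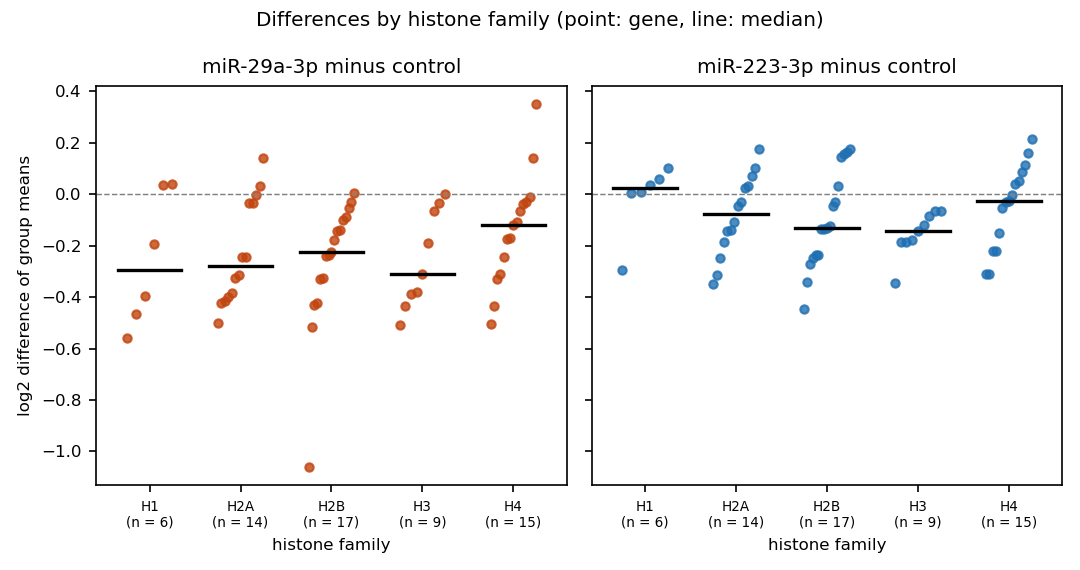
Log2 difference from control of each gene (point) by histone family, with the family median as a line, for miR-29a-3p on the left and miR-223-3p on the right. With miR-29a-3p the medians run from -0.31 for H3 to -0.12 for H4, and with miR-223-3p from -0.145 for H3 to 0.0225 for H1.

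In a direct comparison of both mimics, the differences do not use the control samples, but the p-values rest on a spread estimated over all 3 groups. With miR-29a-3p 46 of 61 members were lower than with miR-223-3p, where 50.1% of all genes were, and the median was -0.11. Both miR-29a-3p samples lay below both miR-223-3p samples in 20 members, or 32.8%, against 19.5% of all genes, and above in 2, or 3.28%, against 19.2%. No member was called in limma with the constant prior (0.221% of all genes) or with the trend (1.94%). At an unadjusted p under 0.05 there were 2, H2BC26 and H1-4, both lower, which is 3.28% of members. Of all genes 5.22% passed in the lower direction and 10.3% in either. H2BC26 differed by -0.825, with adjusted p of 0.254 and 0.0984 in limma with the constant prior and the trend. H1-4 differed by -0.47, with 0.471 and 0.0599 in the same order. The median was -0.035 without miR-223-3p A, and it was -0.185 without miR-223-3p B.

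The wider machinery was read from lists of related genes. Among 21 measured genes of histone messenger RNA processing and decay, 10 were lower and 10 higher with miR-29a-3p, the median was 0, and none was called in limma in either direction with either prior. SLBP, which binds the stem-loop, measured 9.76 and 9.79 in control, 9.87 and 9.29 in the miR-29a-3p pair and 9.89 and 9.58 in the miR-223-3p pair. NPAT, a coactivator of histone transcription, measured 7.88 and 7.4 in control, 7.9 and 7.51 in the miR-29a-3p pair and 8.16 and 8.19 in the miR-223-3p pair. LSM11, a part of the U7 particle that helps cut histone transcripts, was dim and lowest with miR-29a-3p. Its signals were 5.54 and 5.45 in control, 4.86 and 4.82 in the miR-29a-3p pair and 5.06 and 4.99 in the miR-223-3p pair. The groups did not overlap. With miR-29a-3p its adjusted p in limma against control was 0.307 (constant prior) and 0.396 (trend). CASP8AP2, which takes part in histone gene expression, differed by 0.3 (miR-29a-3p) and 0.17 (miR-223-3p).

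Of 18 genes listed as replication-independent histone variants, 13 were measured. With miR-29a-3p they were lower in 8 cases and higher in 5, with a median of -0.085. H2AX, a variant that marks broken DNA when phosphorylated and whose gene makes both stem-loop and polyadenylated transcripts, was the 1 variant called, lower, with the trend. In that fit 0.695% of all genes were called lower with miR-29a-3p. H2AX measured 12.49 and 12.62 in control, 11.88 and 11.83 in the miR-29a-3p pair and 12.82 and 12.42 in the miR-223-3p pair. The miR-29a-3p samples lay below the other 4, and the log2 difference from control was -0.7, with an adjusted p in limma of 0.351 (constant prior) and 0.0213 (trend). Against miR-223-3p it was -0.765, with 0.222 and 0.00546. Histone chaperones, which carry histones to DNA, were lower in 14 of 21 cases with each mimic, with medians of -0.085 (miR-29a-3p) and -0.075 (miR-223-3p), and none was called in either fit.

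Genes of DNA replication and S phase were lower in 22 of 34 cases with miR-29a-3p, with a median of -0.0625, and in 15 of 34 with miR-223-3p, with a median of 0.015. With miR-29a-3p GINS1, a subunit of the replicative helicase complex, was the 1 gene called, lower, with the trend, against 0.695% of all genes. It measured 11.39 and 11.6 in control, 10.86 and 10.69 in the miR-29a-3p pair and 11.36 and 11.51 in the miR-223-3p pair, and its difference of -0.72 had an adjusted p in limma of 0.295 (constant prior) and 0.0247 (trend). Genes of G2 and mitosis were lower in 7 of 20 cases with miR-29a-3p (median 0.0625) and 6 of 20 with miR-223-3p (median 0.1025), and none was called. The replication genes had a median nearer to 0 than the histone genes with miR-29a-3p, and that difference was not tested.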

How the data were processed

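Expression arrays of 6 samples were used, 2 in each of 3 groups taken from the sample titles. The deposited values are log2 signals that the authors normalized with RMA, and RMA and the genome build hg38 are named in the submitters' processing notes. Because RMA brings all arrays to a common distribution, it hides any change in total RNA per cell. Of 21448 probe sets, 17709 had 1 named gene, 3739 were unnamed, and 22 further probe sets of genes with several were left out, which gave 17687 genes. Symbols were updated through RefSeq gene identifiers, and coordinates are those of GRCh38.p14.

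All genes were fitted together with limma 3.58.1 in R 4.3.3, as 1 model of 3 groups with 3 residual degrees of freedom and a constant prior. P-values were adjusted with Benjamini-Hochberg over all genes and called at 0.05. A prior that follows the signal level (the intensity trend) was an alternative, as were a robust prior, removal of dim genes, other scalings, a replicate block, a fold threshold and leaving out each sample. The counts of members lower under the alternatives were added after seeing the data. The procedure was tried on simulated data with log2 changes of 2, larger than any difference of a member. That trial cannot show how it treats differences as small as those of the members. SDs rest on the 2 samples of a group. Standard errors are moderated ones from the fit with the constant prior, which pools the spread of all 3 groups. The number of samples limits the precision of both.

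Named genes are, in each family, the lowest and highest difference against control among genes at or above the median of all genes, every member called in either fit, the member with the highest mean, and divergent partners. Other members are named where a count or a place is described, and were chosen after their values were seen. The members and lists were chosen with earlier results of these data known. Medians and counts over members are descriptions without a test.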

Additional observations from a re-analysis of the deposited data

How the results depend on the processing

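Over all genes, the calls against control with the constant prior were 0 for miR-223-3p and 2 for miR-29a-3p, and 39 between the mimics. In the same order they were 121, 182 and 344 with the intensity trend, 3, 17 and 107 without genes under a mean of 5, and 684, 826 and 1022 at an unadjusted p under 0.05 with a 1.5-fold change. With only the 2 mimic groups fitted, 1 gene was called between them. With a replicate block on the letters A and B the calls were 0, 0 and 0, over all genes and over the histone genes. Over all genes, deviations of samples with the same letter correlated at 0.0682 between control and miR-29a-3p. The correlation was 0.00393 between control and miR-223-3p and 0.134 between the mimics. Over the 61 members the values were 0.0296, -0.112 and 0.227 in that order. The letters are therefore not used as pairs. Leaving out 1 sample gave 0 to 2 calls for miR-29a-3p against control and 0 to 1 between the mimics. Among the 61 histone genes, 3 were called with the trend for miR-29a-3p against control, or 4.92%, against 1.03% of all genes. At the unadjusted 1.5-fold threshold 1 of the 61 passed there, against 826 of all 17687 genes. Between the mimics 1 of the 61 passed that threshold, against 1022 of all 17687. The cause of these changes was not tested.

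Leaving out 1 sample moved the histone median from -0.37 to -0.065 for miR-29a-3p against control and from -0.255 to 0.06 for miR-223-3p, where 23 to 54 members were lower. With miR-223-3p, H1-2 ranged from -0.06 to 0.13, H4C1 from -0.24 to 0.67 and H3C10 from -0.525 to 0.395. With miR-29a-3p, H1-2 ranged from -0.265 to 0.345, H3C13 from -0.155 to 0.155, H2AC6 from -0.055 to 0.335 and H2BC21 from -0.01 to 0.02. H2BC21 was at -0.0067 after a second quantile normalization, and H3C13 was at 0.02 with arrays centred on their medians. The number of samples limits every value here.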
